A study of Equus caballus with 4 samples.

Results

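HSD3B2 and CYP3A89 are enzymes of the endoplasmic reticulum that act on steroids and, in the case of CYP3A89, belong to a family known for oxidising drugs. Their transcripts were measured in equine sarcoids, which are locally invasive fibroblastic skin tumours, and in skin taken away from the tumour. All non-control probes whose RefSeq transcript belongs to either gene were read, which gave 2 probes, 1 for each gene, out of 43603 probes and out of 1031 RefSeq gene symbols on the array. Each probe was printed as 1 spot per array. Both genes were chosen by the ratio of sarcoid over skin on these 4 arrays, as enzymes among the 12 named genes with the lowest ratio, so their ratios are given as a description and without a test.

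The study used 4 horses, and each horse gave 1 sarcoid and 1 sample of distant skin, whose tissue the labels give as control. Both RNAs of a horse were hybridised to the same two-colour Agilent array, the sarcoid in the Cy3 channel and the skin in the Cy5 channel on all 4 arrays, so a dye effect specific to a probe cannot be told apart from a tissue difference. Breed, age and sarcoid type are not given in the labels, and 3 of the sample descriptions name embryonic stem cells, against their tissue fields. Whole biopsies were profiled, so fewer cells of a type and less RNA per cell cannot be told apart. The scanner software placed 67.2% to 80.7% of non-control spots well above background, depending on channel and array, and no spot was saturated. With 4 arrays, their number sets the precision.

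Steroid hormones are made from cholesterol, which is cut to pregnenolone in mitochondria by CYP11A1 and then passed between dehydrogenases and cytochromes P450. The 3-beta-hydroxysteroid dehydrogenases oxidise pregnenolone to progesterone and dehydroepiandrosterone to androstenedione, a step that every active progestogen, androgen, oestrogen and corticoid needs. Skin carries out part of this chemistry itself, and sebaceous glands are a known site of 3-beta-hydroxysteroid dehydrogenase. CYP3A enzymes are monooxygenases of liver and gut that oxidise a broad range of drugs and also hydroxylate steroids, with electrons supplied by the reductase POR and by cytochrome b5.

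HSD3B2 gave a strong signal in every skin sample and a weak but measurable one in every sarcoid. After subtraction of the local background, the median spot signal in skin was 10139.5 scanner units in horse 1, 4418 in horse 2, 10083 in horse 3 and 11855.5 in horse 4. In the sarcoids of the same horses it was 677, 129, 266.5 and 208 units. The skin of horse 2 was the lowest of the skin samples and its sarcoid the lowest of the sarcoids, while the sarcoid of horse 1 stood above the other sarcoids. The spot was well above background in both channels of all 4 arrays. Negative control spots, which carry no horse sequence, had a median of 41 to 47 units in the Cy3 channel and of 7.75 to 13 units in the Cy5 channel, and every HSD3B2 reading lay above all the negative controls of its channel and array.

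On the normalised scale the sarcoid held between 3.82% and 6.70% of the HSD3B2 signal of the same horse's skin. The log2 ratio of sarcoid over skin was -3.90 in horse 1, -4.14 in horse 2, -4.71 in horse 3 and -4.54 in horse 4, with a mean of -4.32 ± 0.37 (SD, n = 4). This corresponds to a 20.0-fold higher level in skin, with single horses between 14.9-fold and 26.2-fold. The spread over horses was close to that of a typical target, since the median SD over all 19607 tested targets was 0.34 and 45.5% of them had a larger SD than HSD3B2. Expressed as normalised log2 levels, the skin samples stood at 12.75 ± 0.75 and the sarcoids at 8.43 ± 0.84, and the lowest skin sample was 2.12 above the highest sarcoid. Within each tissue the horses differed by more than the ratio did. Skin levels ran from 11.71 in horse 2 to 13.50 in horse 1, sarcoid levels from 7.57 in horse 2 to 9.60 in horse 1, and the same horses were thus lowest and highest in both tissues. Before normalisation the brightest skin spot was instead that of horse 4, at 11855.5 units. Horses 3 and 4 lay next to each other, at 13.00 and 12.81 in skin and at 8.28 and 8.27 in the sarcoids; with 1 spot per array no error within an array is available to separate them.

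CYP3A89 was clearly measured in skin and lay only slightly above the negative controls in the sarcoids. The background-subtracted skin signal was 927 units in horse 1, 925 in horse 2, 1657.5 in horse 3 and 1470 in horse 4. The sarcoid signal was 92, 57, 69 and 77 units in the same order. The skin samples of horses 3 and 4 were brighter than those of horses 1 and 2, and the lowest skin reading was far above the highest sarcoid reading. The sarcoid readings exceeded the median negative control of their array by 49, 15, 22 and 36 units, and each lay above all the negative controls of its array. The scanner software called the sarcoid spot well above background in horses 1, 3 and 4 but not in horse 2.

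**Figure D1:**
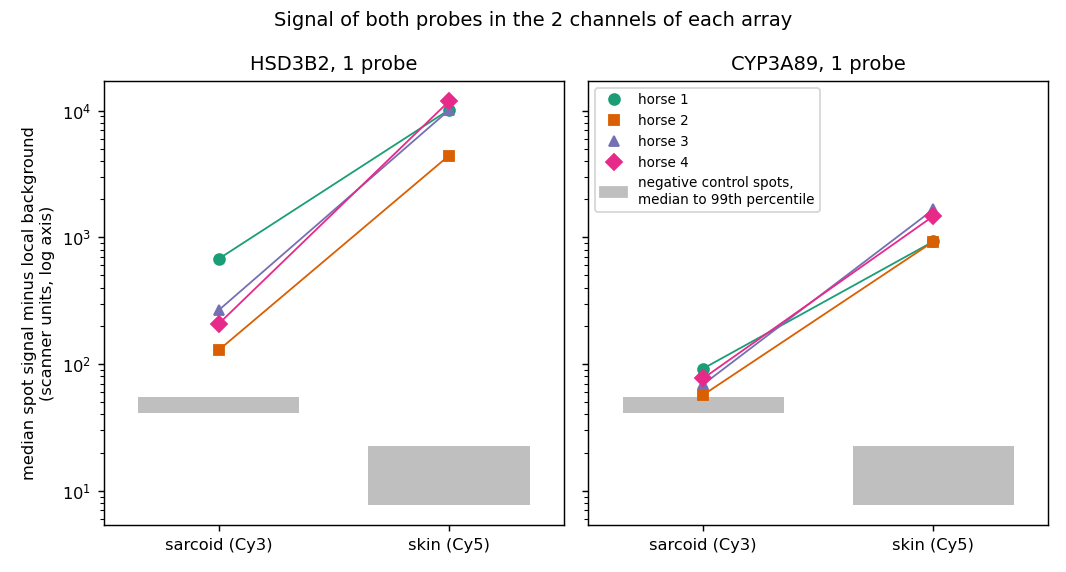
Median spot signal minus local background, in scanner units on a log axis, for the single probe of HSD3B2 (left) and of CYP3A89 (right); each line joins the sarcoid (Cy3) and the distant skin (Cy5) of 1 horse on 1 array. Grey bands run from the lowest median to the highest 99th percentile of the negative control spots over the 4 arrays. HSD3B2 lies between 129 and 677 units in the sarcoids and from 4418 units upward in skin, while the CYP3A89 readings of the sarcoids, 57 to 92 units, sit just over the upper edge of the Cy3 control band.

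The normalised log2 ratio of CYP3A89 was -3.38 in horse 1, -3.13 in horse 2, -4.10 in horse 3 and -2.77 in horse 4, with a mean of -3.34 ± 0.56 (SD, n = 4). The level was 10.2-fold higher in skin on average, with single horses between 6.80-fold and 17.2-fold. Normalised log2 levels were 10.03 ± 0.37 in skin and 6.68 ± 0.41 in the sarcoids, and the groups were 2.31 apart at their nearest points. Horse 3 had both the highest skin level, 10.46, and the lowest sarcoid level, 6.36, and horse 4 had the highest sarcoid level, 7.25. Before normalisation the sarcoid order differed, with the lowest signal in horse 2 (57 units) and the highest in horse 1 (92 units). The spread over horses was wider than for HSD3B2, and 21.9% of all targets had a larger SD.

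The size of the CYP3A89 difference depended on how the dim sarcoid signal was treated. An offset of 50 units is added to both channels after the background model, a common step that pulls ratios of dim probes toward 0. With that offset set to 0, a setting added after the data were seen, the mean was -4.50 ± 0.78, and with the scanner software's own processed signals it was -4.76 ± 0.87. HSD3B2, which is brighter in the sarcoids, stood at -4.66 ± 0.41 and -4.67 ± 0.39 under the same settings. In both of these settings the means of the genes lay closer together than the SD of CYP3A89.

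Both means moved the other way when the background model was fitted to all spots and outlier spots were removed only afterwards. HSD3B2 was then at -3.26 ± 1.14 and CYP3A89 at -1.90 ± 1.38. The change lay in horses 2 and 3, where the fitted background SD in the sarcoid channel was 495 and 1394 units in place of 1.57 and 0.95. In the skin channel of these horses it was 177 and 1536 units in place of 0.12 and 0.64. In horse 2 the HSD3B2 ratio went from -4.14 to -2.25 and the CYP3A89 ratio from -3.13 to -0.87. In horse 3 HSD3B2 went from -4.71 to -2.34 and CYP3A89 from -4.10 to -0.60, while in horses 1 and 4 both genes changed by less than 0.01.

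**Figure D2:**
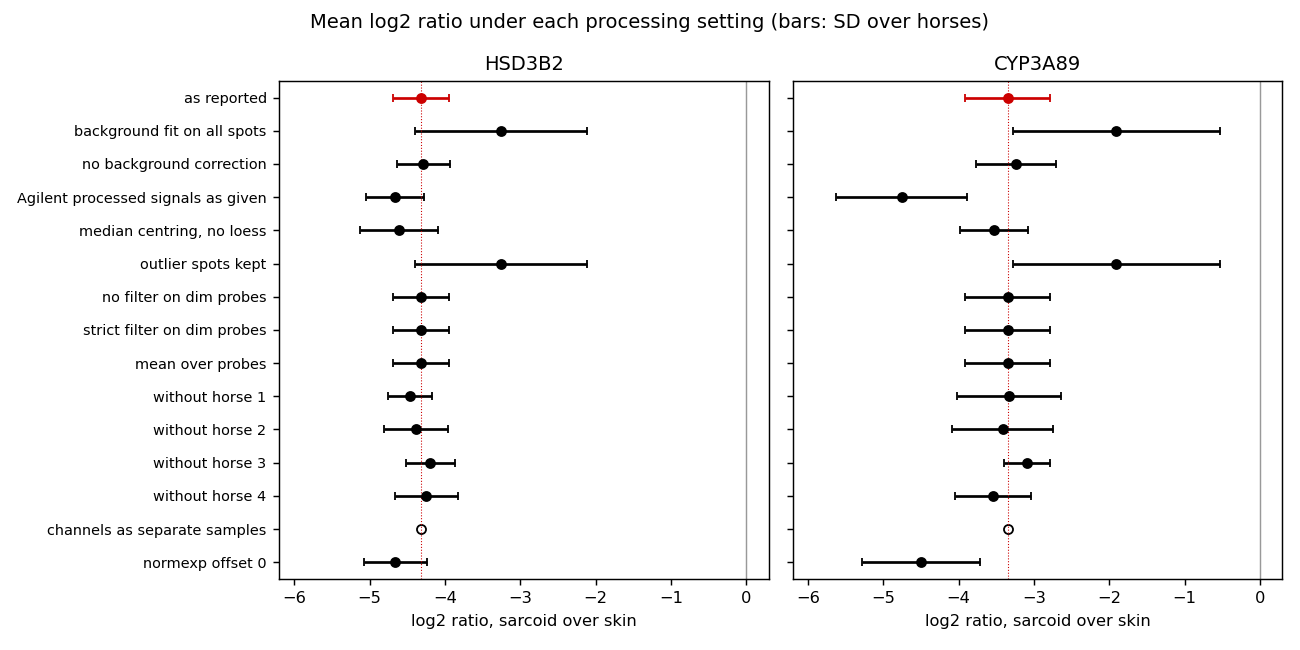
Mean log2 ratio of sarcoid over skin for HSD3B2 (left) and CYP3A89 (right) under each processing setting; bars are the SD over horses, open circles have none, and the dotted line marks the reported value. HSD3B2 lies between -4.67 and -3.26 and CYP3A89 between -4.76 and -1.90 over the settings shown, with the means nearest 0 where outlier spots entered the background fit.

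Among the genes with a symbol that passed the test over all targets and were lower in all 4 horses, HSD3B2 was the 7th and CYP3A89 the 12th when ordered by the ratio. CYP3A89 was thus the last gene inside the choice of 12, at -3.34, and CRISP3, a cysteine-rich secretory protein, was the first outside it, also at -3.34 to 2 decimals. Targets without a symbol reached lower, and over all 19607 targets HSD3B2 ranked 85th and CYP3A89 212th from the lowest.

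CYP3A89 has close relatives on the array, and these were not used in its choice. In the RefSeq gene table of the horse (assembly TB-T2T) CYP3A93 is the neighbour of CYP3A89 on one side, and CYP3A94, CYP3A95, CYP3A96 and CYP3A97 follow on the other. CYP3A93 was measured by 2 probes, and CYP3A94, CYP3A95 and CYP3A97 by 1 each. Over all 19607 targets limma called 9.9% lower and 5.84% higher in the sarcoids at an adjusted p under 0.05, and of the 3 relatives that could be tested 2 were called lower and 0 higher. All 3 passed the filter on dim probes through the skin channel alone, so this count is given as a description and not read against the share over all targets.

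CYP3A93 fell in the sarcoids, with log2 ratios of -2.40, -1.96, -3.11 and -1.39 in horses 1 to 4 and a mean of -2.21 ± 0.73 (SD, n = 4; limma adjusted p = 0.00837). It was well above background on all 4 skin arrays but on only 1 sarcoid array, that of horse 1, so the size of its ratio in the other horses is uncertain. Its dimmer second probe had a mean of -0.95 ± 0.22, so the probes of this gene differed in size. CYP3A94 also fell, with ratios of -1.99, -1.47, -2.41 and -0.99 (limma adjusted p = 0.012). Since it was not well above background in any sarcoid, its mean level was at least 3.10-fold higher in skin. In each sarcoid such a lower bound takes the higher of the probe's own level and the lowest level of any probe well above background. The mean of these is set against the mean skin level. The bound rests on channel levels under the reported background fit and stays subject to dye bias. Single horses and other fits can lie below it. CYP3A94 was at -0.99 in horse 4 and at a mean of -0.82 with the background fitted on all spots. CYP3A97 did not pass (limma adjusted p = 0.0557) with ratios of -1.04, -0.49, -1.43 and -0.37, and was at least 1.74-fold higher in skin by the same reckoning. It passed with no background correction, with the processed signals, with separate channels and with offset 0, with adjusted p-values between 0.000577 and 0.0419 in limma. CYP3A95 was not well above background in any channel of any array, with readings of 11 to 17.5 units in skin, and was not tested.

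In each of the 5 CYP3A probes that passed the filter the ratio was lowest in horse 3, followed by horses 1, 2 and 4. The sarcoid signal under these ratios was mostly not well above background: CYP3A94 and CYP3A97 were above it in 0 of 4 sarcoids, both CYP3A93 probes in 1 and CYP3A89 in 3. The order is therefore a description and supports no likeness between the genes. Horse 3 stayed lowest and horse 4 highest in all 5 with no background correction, with the processed signals and with offset 0, but horses 1 and 2 changed places in 4 of the 5 under the last of these and under the processed signals. With median centring horse 4 was highest in 4 of 5; the exception was CYP3A89, which was then highest in horse 1, and with the background fitted on all spots the order was lost in all 5. HSD3B2 as reported was also lowest in horse 3 but highest in horse 1. The sequences of the probes were not used here, so signal shared between CYP3A transcripts on one probe was not tested, and each CYP3A value is uncertain to that extent.

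**Figure D3:**
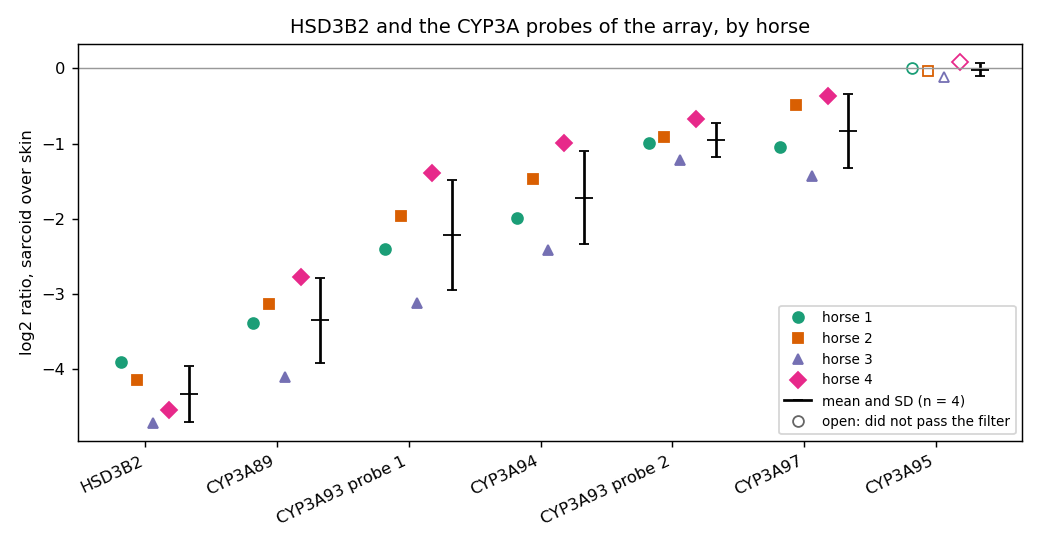
Log2 ratio of sarcoid over skin in each horse for the HSD3B2 probe and for the CYP3A probes of the array, ordered by their mean; black bars are the mean and SD over 4 horses and open symbols mark a probe that did not pass the filter on dim probes. The CYP3A means run from -3.34 for CYP3A89 to near 0 for the CYP3A95 probe, with horse 3 lowest and horse 4 highest in the 5 filled CYP3A probes, of which only CYP3A89 was well above background in more than 1 sarcoid.

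Around HSD3B2 the same table places HAO2, WARS2 and TBX15 on one side and ZNF697 and PHGDH on the other. Of the 10 protein-coding neighbours on each side only TBX15, a transcription factor of dermal fibroblasts, could be read by name, and it rose in the sarcoids by a log2 ratio of 2.22 ± 0.95 (limma adjusted p = 0.0172). TBX15 is also one of the listed fibroblast markers given below.

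The other genes of steroid metabolism were taken from 3 lists, of which 26 genes besides HSD3B2 were on the array by name and 22 could be tested. In limma 7 of the 22 were lower, 0 higher and 15 did not pass; at an unadjusted p under 0.05 there were 9 lower and 1 higher. Their median log2 ratio was -0.31, against 0.00 over all targets. Of the 7, 2 passed the filter through the skin channel only. Among the 16 genes measured in both tissues, 5 (31.2%) were lower, against 9.1% of the 17485 targets measured in both.

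Enzymes of hormone synthesis and inactivation showed 5 lower genes among 11 tested, where 9.9% of all targets were lower. Of the 5, HSD11B2 passed the filter through the skin channel only. CYP19A1, the aromatase that turns androgens into oestrogens, had ratios of -2.01, -1.40, -1.92 and -2.61 in horses 1 to 4 and fell by 1.99 ± 0.50 on the log2 scale (limma adjusted p = 0.0045). The brightest probe gave this value, and the 9 probes of the gene lay between -1.99 and -0.36. CYB5A, cytochrome b5, an electron donor that helps CYP17A1 and CYP3A enzymes, fell by 1.18 ± 0.49 (adjusted p = 0.0204), with horse 3 nearest 0 at -0.57. POR, the reductase that feeds electrons to all microsomal P450 enzymes, fell by 1.08 ± 0.46 (adjusted p = 0.0231), from -0.71 in horse 1 to -1.75 in horse 4. HSD17B4, a peroxisomal enzyme that oxidises oestradiol and very long fatty acids, fell by 1.02 ± 0.36 (adjusted p = 0.0173). HSD11B2, which inactivates cortisol, fell by 0.59 ± 0.13 (adjusted p = 0.0257) but was well above background in 1 sarcoid only.

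Other genes of the route from cholesterol to androgens and oestrogens did not pass. STAR, which carries cholesterol into mitochondria, was at 0.15 ± 0.20, and CYP11A1, which makes pregnenolone, at 0.44 ± 0.59, with 1.29 in horse 3 and at most 0.34 in the others. CYP17A1, which makes the androgen precursors, was at -0.35 ± 0.07 (limma adjusted p = 0.0873). It was not well above background in any sarcoid. The reckoning used for CYP3A94 gives 1.27-fold higher in skin, which is nearly its mean ratio. Horse 2, at -0.26, and the other probe, at a mean of -0.30, lay nearer 0 than this. CYP17A1 passed with the processed signals, with offset 0 and without the filter on dim probes. The adjusted p-values were then 0.0111, 0.0164 and 0.0469 in limma. HSD17B1 stood at -0.32 ± 0.11, SULT1E1, an oestrogen sulfotransferase, at 0.05 ± 0.35, and AKR1C1, which reduces progesterone, at 1.16 ± 1.40 with horses from -0.25 to 3.03.

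None of the 7 tested receptors and regulators of steroid hormones passed. The oestrogen receptor ESR1 was at -0.38 ± 1.24 by its brightest probe, below 0 in horses 1 to 3 and at 1.43 in horse 4. Its other probes, each well above background in at most 2 sarcoids, had means of -0.22 to -0.14. In horse 4 these lay between -0.34 and -0.04, so the rise in horse 4 rests on the brightest probe. The glucocorticoid receptor NR3C1 was at -0.17 ± 0.42. NR5A1, the master regulator of steroidogenic tissue, had 1 of 6 probes above background, at 0.06 ± 0.18.

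Cholesterol supply was represented by 4 genes, of which 2 were lower in limma and 0 higher, where 9.9% of all targets were lower. With so few genes this count is a description. INSIG1, a sterol sensor, was at -0.44 ± 0.45, and the cholesterol exporter ABCA1 at 1.08 ± 0.93; neither passed.

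**Figure D4:**
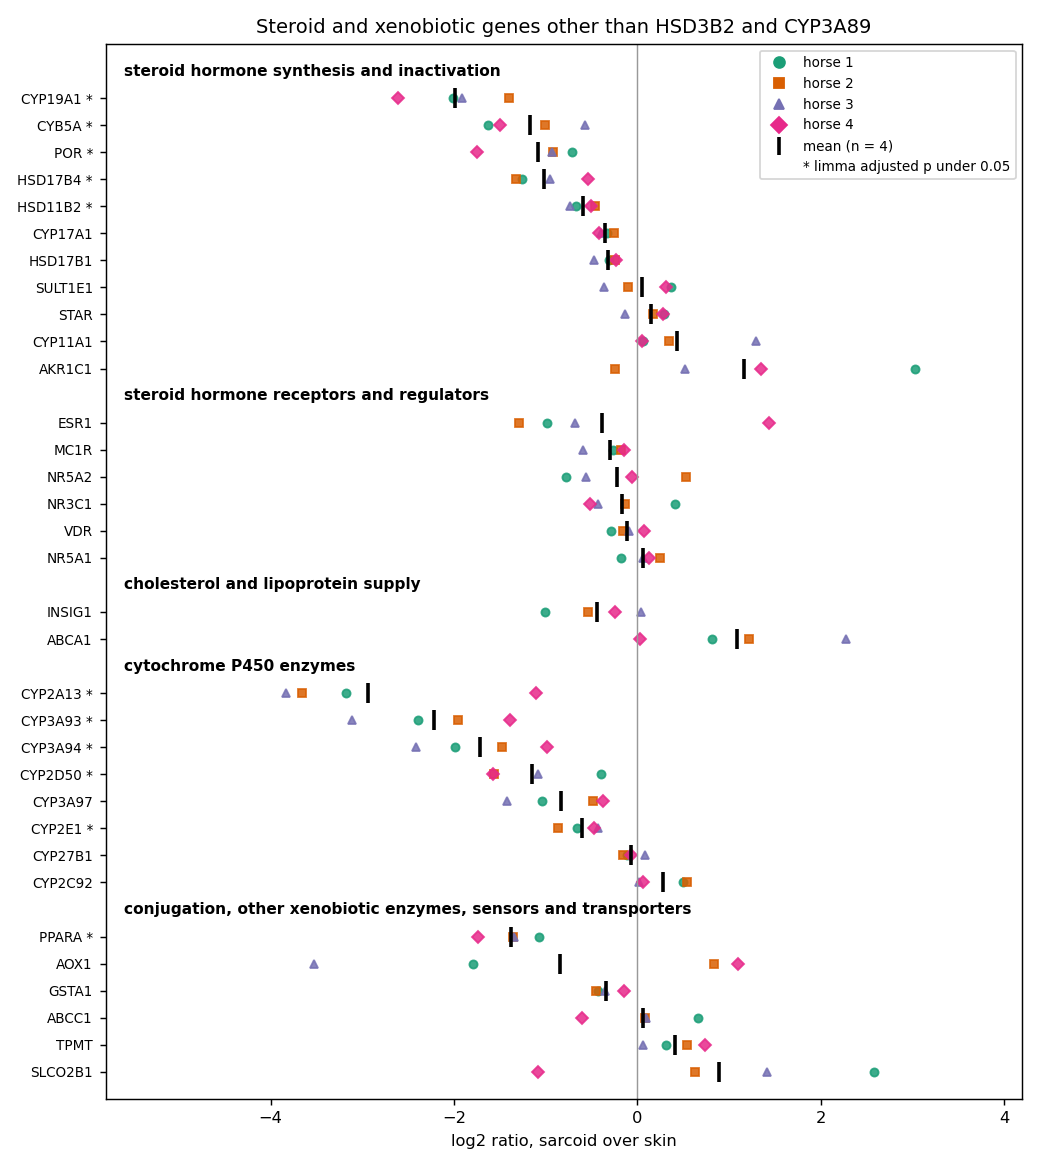
Log2 ratio of sarcoid over skin in each of 4 horses for genes of the 5 steroid and xenobiotic lists that are reported here, HSD3B2 and CYP3A89 left out; coloured symbols are horses, black ticks are means, and a star marks a limma adjusted p under 0.05. All starred genes lie below 0, and no receptor or regulator is starred.

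Genes of xenobiotic metabolism, other than CYP3A89, came from 2 lists with 16 genes on the array by name and 15 tested. In limma 7 were lower, 0 higher and 8 did not pass; at an unadjusted p under 0.05 there were 9 lower and 1 higher. The median log2 ratio was -0.83. Of the 7, 3 passed the filter through skin only, and among the 9 genes measured in both tissues 4 (44.4%) were lower, against 9.1% of all targets so measured. The lists overlap in biology with the CYP3A cluster described above, which supplies 2 of the 7.

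Of 8 cytochromes P450 tested, 5 were lower, where 9.9% of all targets were lower. Of these 5, CYP2A13, CYP3A93 and CYP3A94 passed the filter through skin only, and CYP2D50 and CYP2E1 were measured in both tissues. The count of 5 is therefore a description and is not read against the share over all targets. CYP2A13, a relative of the airway enzyme that activates nitrosamines, had ratios of -3.18, -3.65, -3.84 and -1.10 in horses 1 to 4 (limma adjusted p = 0.0165). It was not well above background in any sarcoid. Its own sarcoid level was the higher in the reckoning above, which thus gives only its mean ratio, 7.69-fold higher in skin. Horse 4 lay nearer 0, and with the background fitted on all spots the mean was -1.48. CYP2D50, a horse enzyme of the drug-oxidising CYP2D family, fell by 1.15 ± 0.55 (adjusted p = 0.0293), and its 2 probes were at -1.15 and -1.32. CYP2E1, which oxidises ethanol and small solvents, fell by 0.61 ± 0.20 by its brightest probe (adjusted p = 0.0332). The mean over its probes that passed the filter on dim probes was -0.36 and was not called (limma adjusted p = 0.104). The CYP2E1 probes left out by that filter were at -0.002 and -0.16. CYP27B1, which activates vitamin D, was at -0.07 ± 0.11 and CYP2C92 at 0.28 ± 0.28, its other probe lying at -0.50. One P450 outside the fixed lists, CYP2C110, chosen after its values were seen, rose by 1.19 ± 0.44 (adjusted p = 0.0167). The falls were therefore not shared by every P450 on the array.

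In the list of conjugating enzymes, sensors and transporters 2 of 7 fell, where 9.9% of all targets were lower. With so few genes this count too is a description. PPARA, a nuclear receptor for fatty acids, was at -1.08, -1.36, -1.35 and -1.74, a mean of -1.38 ± 0.27 (limma adjusted p = 0.00425). AOX1, an aldehyde oxidase, split the horses, with -1.79 and -3.53 in horses 1 and 3 and values above 0 in horses 2 and 4. GSTA1, TPMT, ABCC1 and SLCO2B1 did not pass, with means between -0.35 and 0.89.

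All 14 calls were lost when outlier spots entered the background fit. CYP19A1, PPARA and CYP3A93 passed whichever horse was left out, and CYP3A94 was lost without horse 1 (limma adjusted p = 0.0596). POR and CYP2A13 were lost without horse 1, 2 or 3, and so was HSD17B4; CYB5A was lost without horse 1, 2 or 4, CYP2D50 without horse 2, 3 or 4, and HSD11B2 and CYP2E1 without any one of the 4. CYP2D50 (limma adjusted p = 0.152) and HSD11B2 (0.109) were also lost with the channels as separate samples. No called gene changed direction under these settings.

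Most tested markers of skin epithelium and glands were lower in the same sarcoids, and those of fibroblasts higher. The marker lists were chosen with earlier results of these data known, so their counts are a description. Over all targets 9.9% were called lower and 5.84% higher. Of 31 listed keratinocyte markers 4 could be tested and all 4 were lower, with SPINK9 at -5.44 ± 1.01, S100A7 at -5.13 ± 0.36 and KRT15 at -5.12 ± 0.11; their summed normalised signal was 1404 to 3370 units in the sarcoids and 40072 to 136998 in skin. Of 19 sweat gland markers 6 were tested and 5 were lower, among them LATH at -6.33 ± 0.26, SLC5A1 at -4.06 ± 0.16 and CA6 at -3.53 ± 0.36, with sums of 4332 to 6951 in the sarcoids and 297306 to 413983 in skin. Of 19 sebaceous gland markers only HSD3B2 itself, through its synonym HSD3B1, was matched by name. All 9 tested fibroblast markers were higher. By the probe that stood for each gene, LUM at 4.24 ± 1.16, BGN at 3.06 ± 0.61 and COL14A1 at 3.04 ± 0.98 led. The other LUM probes had means of 3.26 to 3.43 and the other COL14A1 probes 1.27 to 1.61. The place of COL14A1 among the leading genes thus depended on the probe. The sums of the fibroblast list were 907983 to 1279750 in the sarcoids and 152590 to 252648 in skin. Of 6 melanocyte markers 2 were lower, TYRP1 and PMEL. By its brightest probe the mean level of TYRP1 was at least 6.08-fold higher in skin. The other TYRP1 probes had smaller log2 ratios, -1.63 and -1.62, so this bound holds for the brightest probe only. PMEL was at -2.16 ± 0.68, and its dimmer probe at -0.99. EDNRB was at -0.63 ± 0.66. The sums of the melanocyte list were 1895 to 4104 in the sarcoids against 4335 to 5422 in skin. Of 4 leukocyte markers CSF1R was higher at 1.24 ± 0.51, and CD14 (1.14 ± 1.12) and CD2 (0.60 ± 0.65) did not pass, with sums of 7493 to 22161 against 3862 to 9157. The part of these tissue differences in the HSD3B2 and CYP3A89 ratios was not tested.

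The named genes whose 4 ratios lay nearest to those of HSD3B2 were sought among 790 targets with a symbol, by the root mean square difference over the 4 arrays. The nearest was SLC5A1, a sodium-glucose cotransporter, at a difference of 0.39, with ratios of -4.07, -3.96, -4.28 and -3.93. It was followed by the neuropeptide gene CALCB at 0.45, the protease inhibitor SPINK7 at 0.80 and C14H5orf46 at 0.83. For CYP3A89 the nearest was PRNP, the prion protein gene, at 0.21, with ratios of -3.10, -3.41, -3.99 and -2.79. Next were the secreted carbonic anhydrase CA6 at 0.45, SPINK7 at 0.51 and the fructose transporter SLC2A5 at 0.52. With the offset of 50 the ratio of HSD3B2 minus that of CYP3A89 was -0.52, -1.01, -0.61 and -1.77 in horses 1 to 4. With offset 0 HSD3B2 was the higher in horse 1 (-4.06 against -4.31) and horse 3 (-5.00 against -5.47). As reported, CYP3A89 was 9th in nearness to HSD3B2. Both genes were chosen for their low ratios, so nearness to each other and to other genes of low ratio follows largely from the choice. These ranks are therefore a description.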

How the data were processed

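Per the file headers, the deposited files give the median intensity of each spot and of its surroundings in both channels on 4 arrays. The submitters' processing notes name Agilent Feature Extraction, version 11.5.1.1. The deposited log10 ratio is that of Cy5 over Cy3, and the authors' value table repeats that log10 ratio without any difference; its column medians were 0 in horses 1 and 4, -0.00262 in horse 2 and -0.0118 in horse 3. Per the file headers, the deposited flags mark spots as saturated, outlying or well above background.

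Spots flagged as outliers in either channel were left out. Normexp (offset 50) removed background, and loess, in which control spots had no weight, normalised the ratios within arrays (limma 3.58.1, R 4.3.3). Outliers were left out before the background fit, a choice made with earlier results of these data known; the other order is given beside the results. Levels per channel are log2 values after Aquantile scaling. Probes were kept if 1 channel was well above background on 3 or more arrays, and the brightest probe on average stood for its target. The test was limma's moderated two-sided test (lmFit, eBayes) of the mean log2 ratio, with Benjamini-Hochberg adjustment over 19607 targets, of which 791 have a symbol. Each ratio already pairs the tissues of 1 horse. The test was checked on simulated data drawn independently for each target. These hold no dye bias and no misfit of the background, so the check does not bear on those limits.

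Names come from RefSeq accessions through a RefSeq gene table (2332 of 43603 probes matched); the array design uses another build, so no coordinates are given, and no sequences were used here. The members and lists were chosen with earlier results of these data known. Named genes are the members, list genes that passed, or the 2 largest of a list with none, the CYP3A and HSD3B families, the 3 largest of each marker list, and the 4 nearest genes. Genes named beside these were chosen after their values were seen. Alternatives covered background, normalisation, filters, outlier spots, probe choice, separate channels and each horse left out. Some genes counted in the lists are not reported here by name.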

Additional observations from a re-analysis of the deposited data

Results flagged for a closer look

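No value of HSD3B2 or CYP3A89 stood far from the other horses by Dixon's criterion at the 95% level, which sets the gap to the nearest value against the range. Of 71 sets of 4 values examined, 3 did, all of them fibroblast markers, and chance gives such a gap in about 1 of 20 sets. BGN was at 3.98 in horse 1, above the other horses, and so was VIM at 2.29 in horse 1. SPARC was at 1.20 in horse 4, below the other horses.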

How the results depend on the processing

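Both members kept a ratio below 0 under each alternative run. With the background model fitted on all spots, HSD3B2 was at -3.26 and CYP3A89 at -1.90, with 93 targets higher and 147 lower and 0 steroid and 0 xenobiotic genes called lower (at an unadjusted p under 0.05 in limma, 5 and 4). With outlier spots kept the values were -3.26 and -1.90, 94 and 147, and 0 and 0. Both settings raise the fitted background SD in horses 2 and 3. The processed signals put CYP3A89 at -4.76 and called 1887 targets higher (48.2% of calls, against 37.1%), median centring called 614 higher (18.7% of calls), and offset 0, added after the data were seen, put CYP3A89 at -4.50; the cause was not tested. Leaving out a horse gave 389 to 820 targets higher, 1077 to 1415 lower, 2 to 6 steroid genes lower and 4 to 5 xenobiotic genes lower, with fewer samples. The steroid count was 2 without horse 1, 2 without horse 2 and 3 without horse 3, and the xenobiotic count 4 without horse 1, 2 or 3. HSD3B2 ranged from -4.46 to -4.19 and CYP3A89 from -3.54 to -3.09. The reported analysis is paired, since each ratio sets the tissues of 1 horse against each other on 1 array; with the channels as separate samples and no replicate block, so without the pairing, 931 targets were higher and 1790 lower. Signal over background limits CYP3A89 in the sarcoids, where horse 2 was not well above background.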
